A study of Mus musculus with 14 samples.

Results

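The genes described here encode the contents and membrane proteins of secondary (specific) and gelatinase granules of neutrophils: Ltf, Camp, Ngp, Lcn2, Mmp8, Mmp9, Chil1, Chil3, Fcnb and Cd177. They were chosen by name, with earlier results of these data known, so shares over all genes are printed for scale and do not test the choice. Their probes were found through the transcript accessions that the scanner files give for each probe. All 10 genes were found, by 12 probes among 41174, and all 10 passed the filter on dim probes and stand among the 32462 genes tested. Ltf and Mmp9 had a pair of probes each and the other 8 genes had 1 probe.

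RNA came from FDCPmix, an established mouse multipotent blood progenitor line that depends on interleukin-3 and is of bone marrow origin per the labels. All groups came from the same maintenance culture conditions, with horse serum and medium conditioned by WEHI cells as the source of interleukin-3, and the labels name no added allele, transgene or differentiating agent in any of them. Cells were stained with antibodies and sorted into Gr1+ cells (3 arrays), Kit-Gr1- cells (3 arrays), Kit+Gr1-Sca1hi cells (3 arrays) and Kit+Gr1-Sca1lo cells (3 arrays), and 2 arrays held unfractionated cells. Gr1 is a granulocyte antigen carried by the Ly6g and Ly6c proteins, Kit is the receptor for stem cell factor, and Sca1 is the product of Ly6a. The series' design text calls the replicates of each group biological replicates, the purity of the sorts is not given in the sources used here, and all results concern 1 cell line.

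Developing neutrophils make their granule proteins in waves, and each protein is stored in the granules that form while its gene is transcribed. Primary granules form first, in promyelocytes, secondary granules follow in myelocytes and metamyelocytes, and gelatinase granules form last, in band cells. Transcription of secondary granule genes is known to need C/EBP epsilon, a factor of the C/EBP family, together with factors such as PU.1 and Gfi1, and these genes are near silent in progenitors.

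Values are log2 of the processed spot signal minus the 75th percentile of the same array, so 0 marks the level that 75 percent of the probes stay below. A value ranks the same probe across arrays and says nothing about one gene against another. A gene was called when its Benjamini-Hochberg adjusted p over all 32462 genes was under 0.05 (limma, two-sided) and its difference was at least 1 on the log2 scale, which is 2-fold. In sorted bulk cells, fewer cells that express a gene and less RNA per cell cannot be told apart.

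The arrays lay on 4 slides. Slide 1 held replicate 1 of each of the 4 sorted fractions. Slide 2 held Gr1+ replicate 2, Kit-Gr1- replicate 2, Sca1lo replicate 2 and unfractionated replicate 1, slide 3 held Gr1+ replicate 3, Kit-Gr1- replicate 3, Sca1hi replicate 2 and unfractionated replicate 2, and slide 4 held replicate 3 of Sca1hi and of Sca1lo. The log2 signals of 4 arrays were compressed into a narrower range than on the other 10: Gr1+ replicate 3, Sca1hi replicate 3, Sca1lo replicate 3 and unfractionated replicate 1 had interquartile ranges of 1.77 to 3.41, against 4.16 to 4.92 elsewhere. From 79.5% to 99.5% of spots were well above background. The 2 unfractionated arrays correlated with each other at r = 0.51 over all genes, while no pair within a sorted fraction fell below 0.84.

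Lactoferrin, cathelicidin, neutrophilic granule protein and lipocalin 2 form the classical secondary granule content. Ltf encodes lactoferrin, which binds iron. Its signal was 4.95, 7.05 and 6.84 in Gr1+ replicates 1, 2 and 3, against -2.36, -0.10 and -0.81 in Kit-Gr1- cells, -0.70, 0.22 and -0.85 in Sca1hi cells and -1.84, -0.66 and -0.78 in Sca1lo cells. In processed signal units this was 28696 to 119745 in Gr1+ cells and 232 to 790 in Kit-Gr1- cells. Every Gr1+ array lay above every array of the Gr1-negative fractions, with a gap of 4.73 to the highest Kit+Gr1- array. The difference was 7.05 ± 1.24 (SE) on the log2 scale, or 132-fold, against Kit+Gr1- cells, taken as the mean of the Sca1hi and Sca1lo groups (adjusted p = 0.00945), and 7.37 ± 1.43 against Kit-Gr1- cells (adjusted p = 0.0191). The other Ltf probe gave differences of 6.93 ± 1.05 and 7.40 ± 1.21 in the same comparisons.

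Camp encodes the cathelicidin antimicrobial peptide precursor. Its signal was 1.32, 4.30 and 3.64 in Gr1+ cells, against -7.05, -3.24 and -4.37 in Kit-Gr1- cells, -6.33, -3.54 and -1.75 in Sca1hi cells and -6.05, -4.28 and -3.34 in Sca1lo cells. The groups did not overlap, and Camp was not well above background on replicate 1 of any of the 3 Gr1-negative fractions. Camp rose in Gr1+ cells by 7.30 ± 1.24 against Kit+Gr1- cells (adjusted p = 0.00791) and by 7.97 ± 1.43 against Kit-Gr1- cells (adjusted p = 0.0121). These sizes are limited by background, and with normexp background correction they were 5.94 and 6.30.

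Ngp encodes neutrophilic granule protein, a relative of the cystatins and cathelicidins. Its signal was 3.31, 5.70 and 5.41 in Gr1+ cells, against -5.58, -1.78 and -2.75 in Kit-Gr1- cells, -5.12, -1.93 and 0.34 in Sca1hi cells and -5.40, -2.61 and -1.95 in Sca1lo cells. Sca1hi replicate 3, an array with compressed signals, was the highest of the Gr1-negative arrays and still lay 2.97 below the lowest Gr1+ array. The difference was 7.58 ± 1.26 against Kit+Gr1- cells, or 192-fold (adjusted p = 0.00678), and 8.18 ± 1.45 against Kit-Gr1- cells, or 289-fold (adjusted p = 0.0111). With normexp background correction these differences were smaller, at 6.84 and 7.33.

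Lcn2 encodes lipocalin 2, which captures bacterial iron carriers. It had 2.05, 4.38 and 3.96 in Gr1+ cells, against -7.04, -2.89 and -3.92 in Kit-Gr1- cells, -6.88, -2.89 and -2.59 in Sca1hi cells and -5.67, -2.32 and -3.80 in Sca1lo cells. The groups were separate by 4.37, and Lcn2 was not well above background on replicate 1 of Kit-Gr1- and of Sca1hi. It rose by 7.49 ± 1.33 against Kit+Gr1- cells (adjusted p = 0.00988) and by 8.08 ± 1.54 against Kit-Gr1- cells (adjusted p = 0.0173), sizes that with normexp background correction were 6.18 and 6.42.

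**Figure D1:**
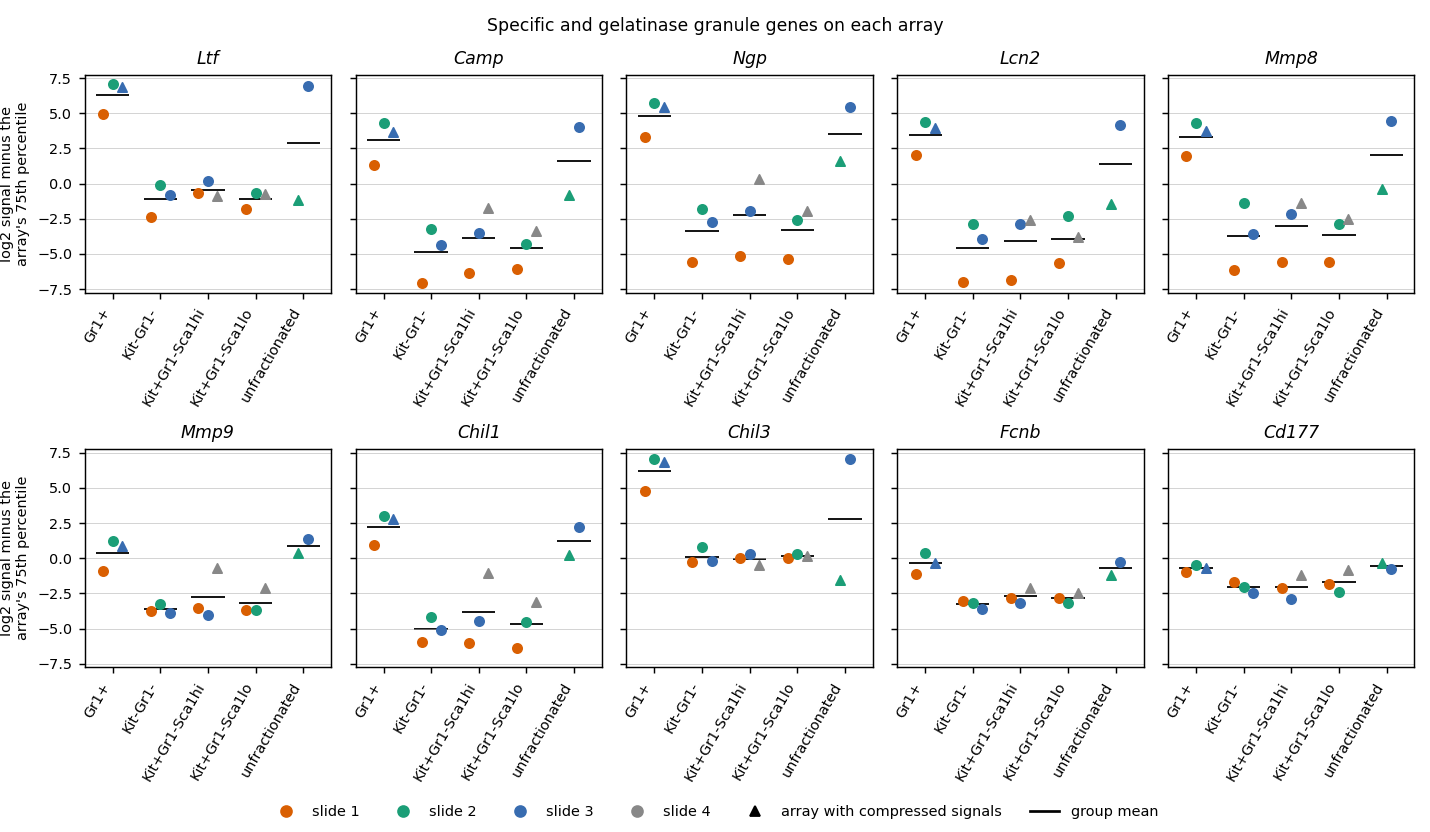
Log2 signal minus the 75th percentile of the array (vertical axis) for the 10 granule genes on each of the 14 arrays, by group; colour gives the slide, triangles are the 4 arrays with compressed signals and lines are group means. Gr1+ arrays lie above all Gr1-negative arrays for 8 genes, replicate 1 on slide 1 is the lowest Gr1+ array in every panel, and for Camp, Ngp, Lcn2, Mmp8 and Chil1 the Gr1-negative arrays of slide 1 lie below the others.

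Mmp8 and Mmp9 encode the metalloproteinases of these granules. Mmp8 is neutrophil collagenase, a secondary granule enzyme, and had 1.95, 4.29 and 3.73 in Gr1+ cells, against -6.16, -1.38 and -3.61 in Kit-Gr1- cells, -5.58, -2.19 and -1.35 in Sca1hi cells and -5.57, -2.90 and -2.54 in Sca1lo cells. It rose by 6.68 ± 1.27 against Kit+Gr1- cells, or 102-fold (adjusted p = 0.0143), and by 7.04 ± 1.47 against Kit-Gr1- cells, or 131-fold (adjusted p = 0.0292), with no overlap in either comparison. The sizes depend on the background step: with normexp background correction they were 5.74 and 5.86.

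Mmp9 is gelatinase B, the enzyme that names the gelatinase granule. Its signal was -0.92, 1.20 and 0.88 in Gr1+ cells, against -3.74, -3.23 and -3.92 in Kit-Gr1- cells, -3.56, -4.01 and -0.71 in Sca1hi cells and -3.66, -3.71 and -2.10 in Sca1lo cells. Gr1+ replicate 1 lay below Sca1hi replicate 3, an array with compressed signals, so the Gr1+ and Kit+Gr1- groups overlapped, while the Gr1+ and Kit-Gr1- groups did not. Mmp9 rose by 3.35 ± 0.69 against Kit+Gr1- cells (10.2-fold, adjusted p = 0.0223) and by 4.02 ± 0.80 against Kit-Gr1- cells (16.2-fold, adjusted p = 0.0219). On the second Mmp9 probe, the mean of 10 spots, Sca1hi replicate 3 read -2.64 and Gr1+ replicate 1 read -0.85, so the groups did not overlap there.

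Chil1 and Chil3 encode chitinase-like proteins without enzyme activity. Chil1, whose human counterpart YKL-40 is stored in secondary granules, had 0.96, 2.99 and 2.78 in Gr1+ cells, against -5.97, -4.15 and -5.07 in Kit-Gr1- cells, -6.02, -4.48 and -1.02 in Sca1hi cells and -6.39, -4.57 and -3.13 in Sca1lo cells. It was not well above background on replicate 1 of Sca1hi and of Sca1lo. It rose by 6.51 ± 1.00 against Kit+Gr1- cells (adjusted p = 0.00467) and by 7.31 ± 1.15 against Kit-Gr1- cells (adjusted p = 0.00563), with no overlap. With normexp background correction these sizes were 5.09 and 5.59.

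Chil3 encodes the protein Ym1 of mouse neutrophils and macrophages. It had 4.78, 7.03 and 6.82 in Gr1+ cells, against -0.25, 0.80 and -0.19 in Kit-Gr1- cells, 0.01, 0.30 and -0.45 in Sca1hi cells and 0.01, 0.33 and 0.18 in Sca1lo cells. The 9 Gr1-negative arrays spanned 1.25, the narrowest range of the 10 genes, and every Gr1+ array lay at least 3.98 above them. The difference was 6.15 ± 1.27 against Kit+Gr1- cells, or 70.8-fold (adjusted p = 0.0217). Against Kit-Gr1- cells it was 6.09 ± 1.46, which missed the threshold (adjusted p = 0.0617). The fit shares 1 spread over all 5 groups, and the 2 unfractionated arrays differed by 8.59 for Chil3. Without them the adjusted p was 3.46e-06 against Kit+Gr1- cells and 1.48e-05 against Kit-Gr1- cells, at the same differences. This alternative was chosen after seeing the data. It also raised the calls over all genes, to 1345 in place of 651 and to 1276 in place of 517. Over all settings tried Chil3 was called in 19 of 31 against Kit+Gr1- cells and in 9 of 29 against Kit-Gr1- cells. Chil4, a near-identical copy of Chil3, has its own probe, and whether the Chil3 probe also binds Chil4 transcripts was not tested.

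Fcnb and Cd177 gave the smallest differences of the 10. Fcnb encodes ficolin B, a lectin that can start the complement cascade and whose human counterpart M-ficolin is held in gelatinase granules. Its signal was -1.15, 0.38 and -0.32 in Gr1+ cells, against -3.03, -3.21 and -3.61 in Kit-Gr1- cells, -2.83, -3.20 and -2.12 in Sca1hi cells and -2.82, -3.21 and -2.47 in Sca1lo cells. The groups did not overlap, and Fcnb rose by 2.41 ± 0.38 against Kit+Gr1- cells (5.32-fold, adjusted p = 0.00556) and by 2.92 ± 0.44 against Kit-Gr1- cells (7.55-fold, adjusted p = 0.00431).

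Cd177 encodes a neutrophil membrane glycoprotein that in human neutrophils is found on the surface and on secondary granule membranes. Its signal was -1.002, -0.47 and -0.68 in Gr1+ cells, against -1.69, -2.01 and -2.49 in Kit-Gr1- cells, -2.15, -2.90 and -1.16 in Sca1hi cells and -1.84, -2.38 and -0.85 in Sca1lo cells. Gr1+ cells lay above every Kit-Gr1- array and overlapped with Kit+Gr1- cells through Sca1lo replicate 3, an array with compressed signals. The differences of 1.16 ± 0.40 against Kit+Gr1- cells (adjusted p = 0.258) and 1.35 ± 0.46 against Kit-Gr1- cells (adjusted p = 0.299) were not called. With the slide as a block they were 1.65 (adjusted p = 0.0110) and 1.35 (adjusted p = 0.0355), and without the 4 arrays with compressed signals they were 1.58 (adjusted p = 0.0120) and 1.33 (adjusted p = 0.0367). With the slide as a random block they were not called (adjusted p = 0.101 and 0.156), and over all settings tried Cd177 was called in 3 of 31 against Kit+Gr1- cells and in 4 of 29 against Kit-Gr1- cells.

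Against Kit+Gr1- cells, 9 of the 10 granule genes were thus called higher in Gr1+ cells and none lower, where 1.38% of all genes tested were called higher and 0.625% lower. The median difference was 6.60, against -0.04 over all genes. For 8 of the 10 genes every Gr1+ array lay above every Kit+Gr1- array, against 5.89% of all genes. Within slides the median difference of the 10 genes was 6.69 on slide 1, 6.95 on slide 2 and 6.58 on slide 3, and all 10 were positive on each. With the slide as a block 9 were called, with Cd177 gained and Chil3 lost (adjusted p = 0.0827), and the median was 6.83. Over all genes that block gave 762 calls in place of 651.

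Against Kit-Gr1- cells, 8 of 10 were called higher in Gr1+ cells and none lower, where 1.03% of all genes were called higher and 0.564% lower. The median difference was 7.17, against 0.22 over all genes. All 10 genes had every Gr1+ array above every Kit-Gr1- array, against 14% of all genes. The medians within slides were 7.12, 6.69 and 7.50 on slides 1, 2 and 3. With the slide as a block 9 of the 10 genes were called, and 684 in place of 517 over all genes. Both comparisons share the same 3 Gr1+ arrays.

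**Figure D2:**
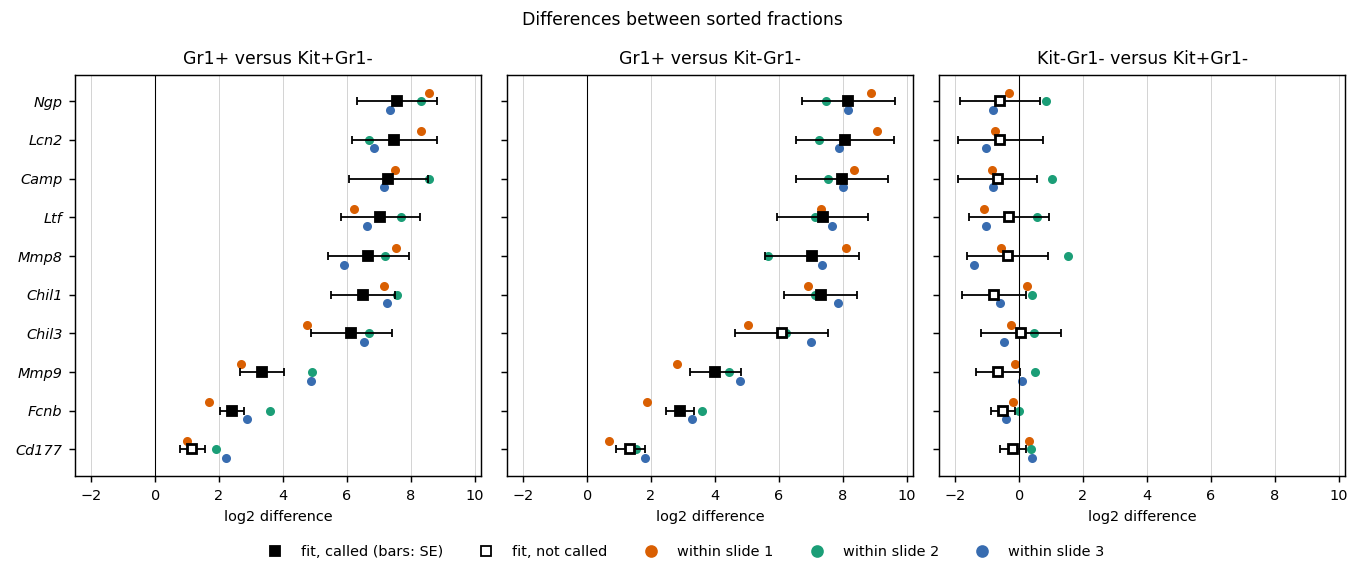
Log2 differences (horizontal axis) of the 10 granule genes in 3 comparisons of sorted fractions; squares are fitted differences with SE, filled where called, and coloured points are the differences within each slide. In both comparisons with Gr1+ cells all within-slide differences are positive, from 0.69 for Cd177 to 9.09 for Lcn2, while those between Kit-Gr1- and Kit+Gr1- cells lie on both sides of 0.

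The calls rested on few arrays. Leaving out Gr1+ replicate 2, the highest Gr1+ array for all 10 genes, left 0 of the 10 called by limma against Kit+Gr1- cells, with 9 at an unadjusted p under 0.05, a lowest adjusted p of 0.0577 and a median difference of 6.17, and 2 called against Kit-Gr1- cells. Over all genes the calls fell alongside, to 114 in place of 651 and to 151 in place of 517. Leaving out Gr1+ replicate 3 left 4 and 2, with 358 and 285 over all genes. Leaving out Kit-Gr1- replicate 1 left 2 against Kit-Gr1- cells, and leaving out Kit-Gr1- replicate 3 left 3, with 187 and 207 over all genes. Mmp9 and Chil3 also lost their calls against Kit+Gr1- cells without replicate 1 or 2 of Sca1hi or of Sca1lo. Without the 4 arrays with compressed signals, all 10 were called in both comparisons, with median differences of 6.96 and 6.94, and calls over all genes rose to 2028 and 1829.

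**Figure D3:**
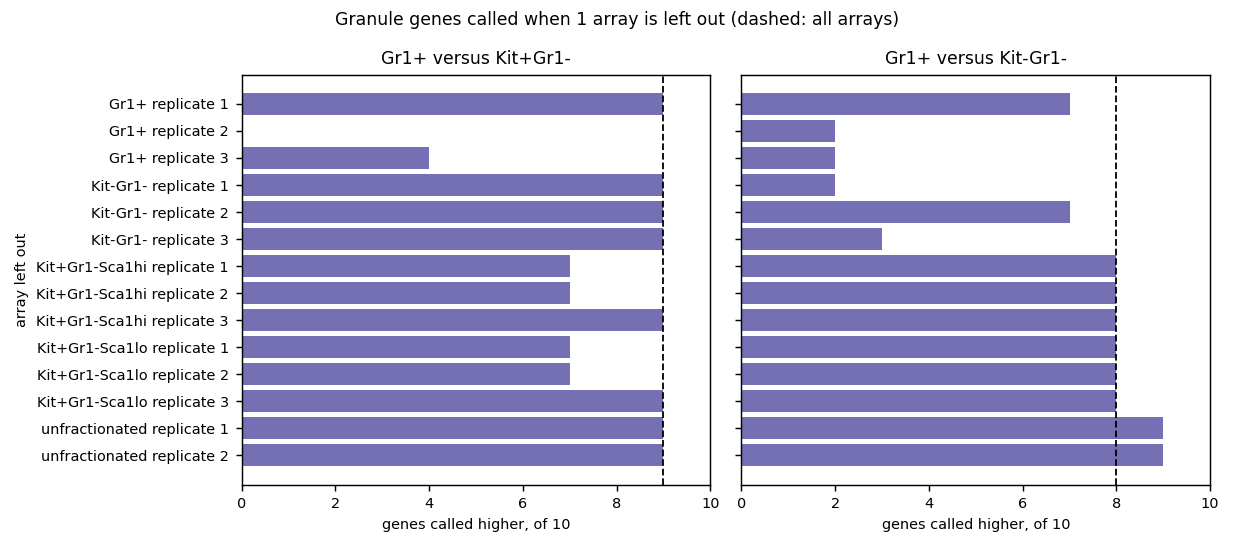
Number of the 10 granule genes called higher in Gr1+ cells (horizontal axis, from 0) when the array named on the vertical axis is left out; dashed lines are the counts with all arrays, 9 and 8. Against Kit+Gr1- cells the count falls to 0 without Gr1+ replicate 2 and to 4 without Gr1+ replicate 3, and otherwise stays between 7 and 9.

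The 3 Gr1+ arrays kept 1 order throughout: replicate 1 was the lowest and replicate 2 the highest for all 10 genes, while replicate 1 was the lowest of the 3 for 32.6% of all genes. The share of all genes with replicate 2 the highest was not counted, so that part of the order has no scale here. Replicate 1 lay below the mean of the other Gr1+ arrays by between 0.43 (Cd177) and 2.65 (Camp). The mean log2 level of 7 neutrophil markers ran in the same order, with 3.36, 4.70 and 4.25 in Gr1+ replicates 1, 2 and 3. That of 8 eosinophil markers did so too, with 1.35, 2.42 and 1.53. Means of the mast cell and basophil, monocyte and macrophage, erythroid and progenitor markers ran in other orders. The part of these cell types in the order of the granule genes was not tested.

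Kit-Gr1- cells, which carry neither Kit nor Gr1, did not differ from Kit+Gr1- cells beyond the spread. None of the 10 genes was called in either direction by limma, and 0 had an unadjusted p under 0.05, with differences of -0.80 (Chil1) to 0.05 (Chil3), a median of -0.55 against -0.25 over all genes, and adjusted p of 0.906 to 0.989. Over all genes 0.0554% were called higher and 0.0123% lower. No granule gene had every Kit-Gr1- array above every Kit+Gr1- array, which 3.33% of all genes did. Within slides the median difference of the 10 genes was -0.29 on slide 1, 0.47 on slide 2 and -0.71 on slide 3. The median was 0.13 without the 4 arrays with compressed signals, 0.28 without Kit-Gr1- replicate 1 and 0.36 with array weights, so its sign depended on the setting, with 0 genes called in each.

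Sca1hi and Sca1lo cells gave 0 called granule genes by limma and 0 at an unadjusted p under 0.05, with 0 called among all genes and 55 genes of the whole table at an unadjusted p under 0.05. The differences ran from -0.38 (Cd177) to 1.09 (Ngp) with a median of 0.51, and the groups overlapped for all 10 genes, where 1.41% of all genes had every Sca1hi array above every Sca1lo array. The slides gave different medians, -0.0027 within slide 1 and 1.20 within slide 4, where both arrays had compressed signals. The median was 0.11 without the 4 arrays with compressed signals, -0.29 without Sca1hi replicate 3 alone and -0.03 without Sca1lo replicate 1 alone.

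Among the 9 Gr1-negative sorted arrays, 5 granule genes were split between slide 1 and the other slides. Slide 1 held replicate 1 of each fraction and no other array, so the slide and the replicate number cannot be told apart here. For Camp, Ngp, Lcn2, Mmp8 and Chil1, all 3 arrays of slide 1 lay below all 6 arrays of the other slides, a pattern that 5.11% of all genes showed. The means on slide 1 and on the other slides were -5.36 and -1.78 for Ngp, -6.53 and -3.07 for Lcn2, -5.77 and -2.33 for Mmp8, -6.48 and -3.42 for Camp and -6.13 and -3.74 for Chil1. Camp, Lcn2 and Chil1 were not well above background on some or all of these slide 1 arrays, so the sizes of their gaps are uncertain. Ngp and Mmp8 were well above background there, with processed signals down to 22.6 and 16.7. Chil3, Fcnb and Cd177 differed by no more than 0.24 in either direction, and Ltf and Mmp9 by -1.13 and -0.71. The median of slide 1 minus the others was -1.76 over the 10 genes and -0.01 over all genes. Without Sca1hi and Sca1lo replicate 3, the arrays of this set with compressed signals, the same 5 genes were split, against 11.5% of all genes, and the median over the 10 was -1.43. This comparison was chosen after seeing the data.

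Of 7 neutrophil markers, 2 showed the same split. The calprotectin subunit genes S100a8 and S100a9, abundant in neutrophil cytosol, averaged -7.95 and -2.39 on the Gr1-negative arrays of slide 1, against 0.36 and 3.70 on those of the other slides, without overlap. The other 5 (Cxcr2, Csf3r, Retnlg, Elane and Mpo) differed by -1.78 to -0.52 with overlapping arrays. The mean of the 7 neutrophil markers was -3.94, -3.00 and -3.19 on Kit-Gr1-, Sca1hi and Sca1lo replicate 1, against -1.53 to 0.04 on the other 6 arrays. Without S100a8 and S100a9 it was -3.27, -2.35 and -2.34, against -2.93 to -0.14, which overlap. The split was not particular to neutrophil markers. The mean of 8 eosinophil markers was -3.12, -2.98 and -2.96 on the same replicate 1 arrays, against -2.91 to -1.46 on the others, without overlap. Means of the mast cell and basophil, monocyte and macrophage, erythroid and progenitor markers overlapped. The part of such markers in the split of the granule genes was not tested.

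Unfractionated cells held all sorted populations together, and their 2 arrays disagreed. Replicate 2 read 6.93 for Ltf, 4.02 for Camp, 5.47 for Ngp, 4.16 for Lcn2, 4.42 for Mmp8 and 7.05 for Chil3, and the Gr1+ mean minus this array ran from -1.10 to -0.65 over these 6 genes. For Mmp9, Chil1, Fcnb and Cd177 it was -0.97, 0.03, -0.08 and 0.02. Replicate 1, an array with compressed signals, read -1.16, -0.85, 1.60, -1.44, -0.37 and -1.54 for the same genes. Replicate 2 minus replicate 1 was smaller for Chil1 (2.02), Mmp9 (1.02) and Fcnb (0.88) and ran the other way for Cd177 (-0.38). Replicate 2 lay above all 9 Gr1-negative sorted arrays for all 10 genes, against 9.16% of all genes, and replicate 1 did so for 8, all but Ltf and Chil3. For 7 genes replicate 2 fell within the range of the Gr1+ arrays.

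Against unfractionated cells none of the 10 genes was called in Gr1+ cells by limma and 0 had an unadjusted p under 0.05, nor was any of all genes, of which 2764 had an unadjusted p under 0.05. The differences ran from -0.46 (Mmp9) to 3.46 (Chil3), with a median of 1.28 against -0.25 over all genes, and the groups overlapped for all 10, where 3.81% of all genes had every Gr1+ array above both unfractionated arrays. Within slide 2, with unfractionated replicate 1, the median was 4.38, and within slide 3, with unfractionated replicate 2, it was -0.14. Leaving out unfractionated replicate 2 gave 3 called granule genes of 10 and a median of 3.45, in a fit that called 15634 of the 32462 genes, and leaving out replicate 1 gave a median of -0.68.

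Other genes of the same granules rose in part. Of 25 further secondary and gelatinase granule genes tested, 10 were called higher in Gr1+ than in Kit+Gr1- cells and none lower, with a median of 2.32. The largest differences were 5.97 ± 1.09 for Hp (haptoglobin, which binds free haemoglobin), 5.54 ± 0.87 for Anxa3 (a calcium-binding annexin of neutrophils), 4.85 ± 0.96 for Slpi (an inhibitor of neutrophil serine proteases) and 4.07 ± 0.82 for Adam8 (a membrane metalloproteinase). The integrin chains Itgam and Itgb2, the formyl peptide receptor Fpr1, Tcn2, Slc11a1 and Stom were also called. Against Kit-Gr1- cells 6 were called higher, Hp, Itgam, Fpr1, Anxa3, Slc11a1 and Stom, with a median of 2.03.

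Among 11 measured regulators of granule gene transcription, 5 rose in Gr1+ against Kit+Gr1- cells and none fell. Cebpd, a C/EBP factor, differed by 5.05 ± 0.74 (adjusted p = 0.00357), Gfi1, a repressor needed for neutrophil development, by 4.13 ± 0.93 (adjusted p = 0.0360), Csf3r, the G-CSF receptor, by 3.21 ± 0.60 (adjusted p = 0.0125) and Klf5 by 1.93 ± 0.29 (adjusted p = 0.00438). Spi1, which encodes PU.1, was also called. Cebpb and Cebpa had differences of 1.60 and 0.97 that were not called, and Cebpe was not analysed here.

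Primary granule genes gave 3 calls of 11, all higher in Gr1+ than in Kit+Gr1- cells: Elane, neutrophil elastase, by 5.96 ± 0.57, Lyz1, a lysozyme, by 4.78 ± 1.08, and Prtn3, proteinase 3, by 3.85 ± 0.50. Mpo, myeloperoxidase, read 9.12, 9.23 and 9.0 in Gr1+ cells, against 4.61, 6.47 and 5.53 in Sca1hi cells and 5.57, 7.40 and 5.95 in Sca1lo cells, and was not called (difference 3.20 ± 1.01, adjusted p = 0.189). Its groups did not overlap.

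Partners and relatives of the 10 gene products gave few calls. Of 14 receptors, inhibitors and partners, Itgb2 (2.79 ± 0.61) and Timp2, a metalloproteinase inhibitor (2.27 ± 0.41), rose in Gr1+ against Kit+Gr1- cells, with a list median of 0.50. Of 24 family relatives, 2 rose: Csta2, a cystatin-family protease inhibitor, by 6.78 ± 1.15 and Chil4 by 5.17 ± 0.77, with a list median of 0.09.

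Markers of several myeloid cell types were higher in Gr1+ cells. Of 7 neutrophil markers, Csf3r, Retnlg and Elane were called against Kit+Gr1- cells, and the array means of the list were 3.36 to 4.70 in Gr1+ cells, -3.94 to -0.49 in Kit-Gr1- cells, -3.00 to 0.04 in Sca1hi cells, -3.19 to -0.15 in Sca1lo cells and 0.31 to 4.05 in unfractionated cells. Retnlg was not well above background on any Kit-Gr1- array, and Ly6g was not analysed here. Of 8 eosinophil markers 6 were called, among them the granule proteins Prg2 (7.71 ± 1.44) and Epx (7.36 ± 1.25), with array means of 1.35 to 2.42 in Gr1+ cells and -3.12 to -1.46 over the Gr1-negative fractions. Of 8 monocyte and macrophage markers 4 were called (Csf1r, Adgre1, Cd14 and Ccr2), with array means of -1.06 to -0.32 in Gr1+ cells, -3.25 to -2.58 in Kit-Gr1- cells, -3.33 to -1.52 in Sca1hi cells and -3.55 to -2.52 in Sca1lo cells. Mrc1 was not well above background on any Kit-Gr1- or Sca1lo array. Of 8 mast cell and basophil markers only Prss34 was called, and none of 7 erythroid or 6 progenitor markers was called against Kit+Gr1- cells. Kit-Gr1- cells had 4 erythroid markers higher than Kit+Gr1- cells (Hba-a1, Gata1, Epor and Aqp1). The part of these cell types in the levels of the granule genes was not tested.

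The 10 genes varied together across arrays. Over the 12 sorted arrays the pairwise Pearson r had a median of 0.92, from 0.63 for Lcn2 with Cd177 to 0.996 for Camp with Ngp, and over the 9 Gr1-negative arrays the median was 0.51, from -0.39 for Ltf with Cd177 to 0.99 for Camp with Ngp. These arrays share fractions, slides and scaling, so the values are a description. Outside the 10, the genes with the profile most like their mean over the 12 sorted arrays were Hspbap1 (r = 0.991), Sirpa (r = 0.990), Clec4b1 (r = 0.990), Cpq (r = 0.986) and Trim45 (r = 0.986). Sirpa, a myeloid receptor that binds CD47, differed by 6.88 ± 0.85 and Clec4b1, a C-type lectin, by 6.39 ± 0.69 between Gr1+ and Kit+Gr1- cells. Differences were smaller for Cpq (3.11 ± 0.45), Trim45 (2.57 ± 0.36) and Hspbap1 (1.60 ± 0.25), since r measures the shape of a profile and not its size.

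Because the genes moved together between fractions, the 250 bases before the start of transcription are shown for 6 of them: the 4 classical secondary granule genes, Chil3 and, as the gene that moved least, Cd177. Sequences are from RefSeq on GRCm38.p6, which gave a promoter for 9 of the 10 genes, Mmp9 being the other, and are written 5′ to 3′ on the strand of the gene. Capitals mark matches on either strand to TTNNGNAA, a pattern that C/EBP factors are known to bind.
Ltf, chr9:111019042-111019291, plus strand: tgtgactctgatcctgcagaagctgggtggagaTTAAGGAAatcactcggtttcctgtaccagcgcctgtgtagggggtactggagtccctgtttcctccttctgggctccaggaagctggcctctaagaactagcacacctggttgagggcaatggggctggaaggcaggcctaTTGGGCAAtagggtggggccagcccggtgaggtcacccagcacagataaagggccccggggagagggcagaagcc
Camp, chr9:109849457-109849706, minus strand: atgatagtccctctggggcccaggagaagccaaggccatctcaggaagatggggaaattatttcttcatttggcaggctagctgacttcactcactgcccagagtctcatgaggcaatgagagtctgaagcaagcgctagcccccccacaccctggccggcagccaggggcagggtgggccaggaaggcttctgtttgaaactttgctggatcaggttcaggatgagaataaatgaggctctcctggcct
Ngp, chr9:110419558-110419807, plus strand: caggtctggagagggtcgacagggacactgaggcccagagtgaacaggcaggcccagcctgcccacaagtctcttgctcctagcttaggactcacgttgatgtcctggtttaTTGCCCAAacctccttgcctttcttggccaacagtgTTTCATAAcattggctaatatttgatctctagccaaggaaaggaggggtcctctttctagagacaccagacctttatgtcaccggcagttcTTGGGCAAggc
Lcn2, chr2:32387740-32387989, minus strand: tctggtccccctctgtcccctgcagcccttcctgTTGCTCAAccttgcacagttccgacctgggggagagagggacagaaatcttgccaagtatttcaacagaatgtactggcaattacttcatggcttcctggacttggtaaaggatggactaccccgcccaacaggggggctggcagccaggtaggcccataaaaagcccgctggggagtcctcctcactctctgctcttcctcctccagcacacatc
Chil3, chr3:106167565-106167814, minus strand: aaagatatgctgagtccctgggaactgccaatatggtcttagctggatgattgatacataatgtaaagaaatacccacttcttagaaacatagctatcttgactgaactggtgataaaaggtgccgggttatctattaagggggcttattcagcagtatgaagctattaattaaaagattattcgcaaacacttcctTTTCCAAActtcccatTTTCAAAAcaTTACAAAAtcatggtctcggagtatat
Cd177, chr7:24760312-24760561, minus strand: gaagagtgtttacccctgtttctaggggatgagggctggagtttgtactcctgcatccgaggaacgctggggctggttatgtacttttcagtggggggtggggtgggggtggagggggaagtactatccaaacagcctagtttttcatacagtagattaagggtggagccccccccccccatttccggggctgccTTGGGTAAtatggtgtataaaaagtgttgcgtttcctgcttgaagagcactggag

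In the window from 250 bases before to 50 after the start, TTNNGNAA was present for 8 of the 9 granule genes, all but Camp, against 40.7% of 32851 mouse promoters of that length. Ngp and Chil3 held 3 matches each, and the match nearest the start of Ngp lay from 11 to 4 bases before it. GAGGAA, a core of PU.1 and other ETS factor sites, was present for 4 genes (Ltf, Lcn2, Mmp8 and Cd177), against 28.3% of all promoters, GATAA for 2 (Ltf and Chil3), against 25.4%, and TATAAA for 3 (Chil3, Mmp8 and Cd177), against 13.6%. All were searched on both strands, and no match in the 9 windows overlapped with another. A match is a run of letters and not a shown binding site.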

How the data were processed

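RNA of 14 samples was measured on single-colour (Cy3) Agilent mouse arrays. Per the file headers, Agilent Feature Extraction 10.1.1.1 gave each spot a processed signal, and the deposited intensity values are these background-subtracted signals on a linear scale. The deposited series matrix holds log2 values equal to the log2 of those intensities, with neither scaling nor centring between arrays (largest difference 5e-09; column medians 6.82 to 12.3).

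Control spots and the 0.345% of spots flagged as outliers were left out, and spots of a probe were averaged. The log2 signal was scaled by subtracting the 75th percentile of each array. Probes well above background on at least 3 of 14 arrays were kept (40276 of 41174), and each gene was represented by whichever of its kept probes had the highest mean (32462 genes, 16459 of them with a symbol). RefSeq accessions were named through a gene table of GRCm38.p6, which named 23374 probes. The number of arrays limits the precision.

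All 14 arrays in 5 groups entered 1 fit without covariates in R 4.3.3 with limma 3.58.1 (lmFit, eBayes with a trend). The fit was also run on simulated data with independent noise and 1 spread per gene. These data held no slide or replicate effects and no compressed arrays, so that run says nothing on how such features affect the calls. Alternatives covered scaling, background, filters, probe rule, slide and replicate blocks, array weights, arrays with compressed signals (interquartile range under 4) and single arrays left out. The normexp alternative used the median spot signal, since the files hold no mean signal. P-values measure the spread between replicate samples of 1 cell line. Python 3.11.15 was used with numpy 2.4.6 and pandas 2.3.3 for tables and with matplotlib 3.10.9 for figures.

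The 10 genes and all lists were chosen with earlier results of these data known. From each list, up to 4 called genes with the largest difference between Gr1+ and Kit+Gr1- cells were named with values. The 5 genes most like the 10 were those with the highest r with their mean profile over the 12 sorted arrays. Other called genes of a list are named because the counts were small.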

Additional observations from a re-analysis of the deposited data

How the results depend on the processing

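Across 31 other settings against Kit+Gr1- cells and 29 against Kit-Gr1- cells, no granule gene changed direction in either comparison with Gr1+ cells, while the calls did change. Against Kit+Gr1- cells, 6 to 10 genes were called in place of 9 under settings other than leaving out a single array, and single arrays left out gave 0 to 9. Against Kit-Gr1- cells, in place of 8, array medians gave 4, quantile normalization gave 5 and a prior without a trend gave 4, and single arrays left out gave 2 to 9; the cause was not tested. Against unfractionated cells single arrays left out gave 0 to 3, the median difference was -0.14 on the series matrix values and -0.96 without the arrays with compressed signals, and 26 of 280 values changed sign, as did 41 of 310 between Kit-Gr1- and Kit+Gr1- cells and 20 of 290 between Sca1hi and Sca1lo cells. With the replicate block, 9 genes were called against Kit+Gr1- and 9 against Kit-Gr1- cells (Chil3 gained, adjusted p = 0.0267). Calls over all genes rose alongside, to 793 in place of 651 and to 670 in place of 517. Against Kit+Gr1- cells the replicate block lowered the SE most for Lcn2 (0.48 in place of 1.33) and least for Fcnb (0.377 in place of 0.382). Same-numbered arrays of different sorted fractions correlated at -0.23 to 0.87 in their deviations from the group means, with a median of 0.41. Arrays with other numbers correlated at -0.86 to 0.66, with a median of -0.11. These ranges overlap, so the numbers were not shown to pair the samples, and the main fit does not use them. Chil3 lost its call against Kit+Gr1- cells in 12 of 31 settings and Mmp9 in 10 of 31. Cd177 gained one in 3.

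The count over all genes moved more. Between Gr1+ and Kit+Gr1- cells 651 genes were called, against 202 with array medians (173 higher and 29 lower, in place of 448 and 203), 1844 with array weights, 2028 without the arrays with compressed signals, 1345 without both unfractionated arrays, 1249 with only the groups compared, and 325 and 421 against Sca1hi or Sca1lo cells alone; single arrays left out gave 114 (Gr1+ replicate 2) to 1349 (unfractionated replicate 1). Between Gr1+ and Kit-Gr1- cells 517 were called, against 191, 2244, 1829, 1276 and 1528 under the first 5 of those settings and 338 without a trend, and single arrays left out gave 151 (Gr1+ replicate 2) to 1283 (unfractionated replicate 1). Between Kit-Gr1- and Kit+Gr1- cells 22 were called, and 0 (without Kit-Gr1- replicate 1 or 3, or against Sca1lo cells alone) to 111 (without unfractionated replicate 1) under other settings. Against unfractionated cells none was called with all arrays, 3 to 10 with the slide as a fixed or random block, on the series matrix values or without the arrays with compressed signals, and 15634 without unfractionated replicate 2. Array medians moved the median of all genes to -0.08 in place of 0.22 between Gr1+ and Kit-Gr1- cells, and to 0.14 in place of -0.25 between Gr1+ and unfractionated cells, where the series matrix values gave -1.67. Signal near background limits Camp, Lcn2 and Chil1 on the Gr1-negative arrays of slide 1, and normexp background correction gave median differences over the 10 genes of 5.84 and 5.94, in place of 6.60 and 7.17.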

Other observations

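Chil4 and S100a8, like Ltf and Chil3, were higher on the second of the 2 unfractionated arrays. Chil4 read 3.75 on unfractionated replicate 2 and -0.43 on unfractionated replicate 1, and S100a8 read 8.07 and -0.11. Replicate 1 is an array with compressed signals, and the difference was not particular to such genes. Gusb read 3.93 and 0.39 on replicates 2 and 1, and Myb 3.88 and 0.75. Some genes ran the other way, such as A2m, with -2.84 and -1.89. The 3 Gr1+ arrays read 1.19, 3.88 and 3.66 for Chil4 and 6.26, 8.18 and 7.68 for S100a8. S100a8 differed by 9.89 ± 2.63 between Gr1+ and Kit+Gr1- cells and was not called (limma, adjusted p = 0.0884), with -8.36 to 1.48 over the Kit-Gr1- arrays.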
